A study of Mus musculus with 12 samples.

Results

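The genes described here mark hematopoietic stem and progenitor cells, the immature cells of bone marrow from which all blood cells descend. They were chosen as 35 listed mouse symbols, and all 35 were found among the 31060 genes counted. Of these, 34 passed the filter on low counts that 15630 genes passed; Ndn did not pass and was not tested. Gene expression was measured as RNA-seq counts per gene in the lineage-negative fraction of bone marrow, which remains once cells carrying markers of mature blood lineages are removed, in mice of the C57BL/6 strain. The groups were Tet2+/-;Ins2Akita/+ (double mutant, n = 3 libraries), Tet2+/- (n = 3), Ins2Akita/+ (Akita, n = 2) and WT (n = 3). Tet2+/- mice have 1 disrupted copy of Tet2, an enzyme that oxidises methylated cytosine in DNA, and Ins2Akita/+ mice have 1 copy of the Akita allele of insulin gene 2, which damages pancreatic beta cells and raises blood glucose. Age, sex and the number of animals per library are not given in the labels, and p-values reflect only how far these libraries spread, which may be technical. Total counts per library were between 14814409 and 22600405.

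Hematopoietic stem cells are kept in number by transcription factors of several families. HOX proteins act with MEIS1 and are lost as progenitors mature. GATA2, TAL1, LMO2, ERG and RUNX1 bind together at many enhancers of stem cell genes. Receptors such as KIT and TEK receive signals from marrow niche cells, and surface proteins such as SLAMF1, PROCR and Sca-1 (encoded by Ly6a) are used to sort these cells. TET2 loss in mice is known to enlarge the stem and progenitor pool.

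Libraries of the series did not all resemble each other. The libraries numbered 3 of the double mutant, Tet2+/- and WT stood apart, with mitochondrially encoded genes at 9.76%, 4.46% and 3.43% of counts, against 1.36% to 1.94% in the 8 libraries numbered 1 and 2; no Akita library with that number was used. The members' counts and medians in the double mutant comparisons, and the genes named where stated, are therefore given again over those 8. Tet2 stood at 66.5, 108 and 34.2 CPM (counts scaled to library size, with TMM factors) in the double mutant, 19.0, 18.5 and 19.3 in Tet2+/-, 131 and 107 in Akita, and 91.2, 128 and 45.1 in WT. The Tet2+/- libraries lay below all others; the double mutant was below WT within each library number, but the ranges of these groups overlapped. The log2 difference in Tet2 was -0.34 for double mutant against WT (SE 0.43, adjusted p = 0.906), 1.88 for double mutant against Tet2+/- (SE 0.45, adjusted p = 0.140) and -2.22 for Tet2+/- against WT (SE 0.45, adjusted p = 0.505). They were -0.33, 2.22 and -2.55 over numbers 1 and 2, where Tet2 was called higher in the double mutant than in Tet2+/- (adjusted p = 0.00537) and lower in Tet2+/- than in WT (adjusted p = 0.0162). The groups that share the Tet2+/- label thus differed in Tet2 RNA, the double mutant lying near WT and not near Tet2+/-. Which group carries 1 disrupted copy was not tested, which leaves the Tet2 part of both labels in doubt. Double mutant and Tet2+/- stand below for the libraries so labelled. Lineage markers were not absent from the fraction: Itgam, of myeloid cells, spanned 614 to 1026 CPM in the double mutant, 48.4 to 436 in Tet2+/-, 263 to 484 in Akita and 50.1 to 373 in WT, while Cd3e, of T cells, reached at most 13.5 CPM in any library. All 10 of 10 genes of a maturing neutrophil list had counts, and their sum was 45060 to 69420 CPM in the double mutant, 2921 to 28010 in Tet2+/-, 15520 to 30060 in Akita and 2079 to 22980 in WT. In bulk RNA, fewer cells of a type and less RNA per cell cannot be told apart, and the part of these neutrophil transcripts in the values below was not tested.

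Promoter windows are shown for 5 members whose values the results turn on, 3 neighbours of the HoxA cluster, Ifitm1 and Gata2. Each window runs from 250 bases before to 50 bases after a RefSeq transcript start on GRCm38.p6, 5′ to 3′ on the gene's strand, and capitals mark CG dinucleotides, the positions at which cytosine can be methylated and TET2 can act. Methylation was not measured here.
Hoxa7, chr6:52218524-52218823, minus strand: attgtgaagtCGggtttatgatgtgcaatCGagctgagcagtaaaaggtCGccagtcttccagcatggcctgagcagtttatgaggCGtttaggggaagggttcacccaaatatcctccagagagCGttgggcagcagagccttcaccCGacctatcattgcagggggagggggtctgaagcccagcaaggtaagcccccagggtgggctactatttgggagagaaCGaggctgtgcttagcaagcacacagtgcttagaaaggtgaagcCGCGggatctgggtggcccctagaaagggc
Hoxa9, chr6:52227321-52227620, minus strand: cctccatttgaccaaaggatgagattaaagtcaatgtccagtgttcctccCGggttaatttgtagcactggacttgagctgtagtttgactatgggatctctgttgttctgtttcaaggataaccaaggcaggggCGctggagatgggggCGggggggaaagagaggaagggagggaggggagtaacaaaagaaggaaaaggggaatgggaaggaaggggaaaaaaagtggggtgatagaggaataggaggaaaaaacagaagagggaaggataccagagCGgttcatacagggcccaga
Hoxa10, chr6:52240805-52241104, minus strand: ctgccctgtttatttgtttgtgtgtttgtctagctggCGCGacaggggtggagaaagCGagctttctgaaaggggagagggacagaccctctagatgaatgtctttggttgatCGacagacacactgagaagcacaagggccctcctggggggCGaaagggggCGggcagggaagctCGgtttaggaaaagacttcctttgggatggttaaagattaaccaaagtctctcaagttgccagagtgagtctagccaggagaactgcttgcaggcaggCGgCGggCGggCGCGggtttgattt
Ifitm1, chr7:140967826-140968125, plus strand: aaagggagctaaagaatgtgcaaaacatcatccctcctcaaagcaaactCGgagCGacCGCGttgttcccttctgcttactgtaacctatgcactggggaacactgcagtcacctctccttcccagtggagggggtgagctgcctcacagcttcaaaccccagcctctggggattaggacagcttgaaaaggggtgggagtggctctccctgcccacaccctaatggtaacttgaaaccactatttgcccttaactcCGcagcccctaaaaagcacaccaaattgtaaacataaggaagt
Gata2, chr6:88193641-88193940, plus strand: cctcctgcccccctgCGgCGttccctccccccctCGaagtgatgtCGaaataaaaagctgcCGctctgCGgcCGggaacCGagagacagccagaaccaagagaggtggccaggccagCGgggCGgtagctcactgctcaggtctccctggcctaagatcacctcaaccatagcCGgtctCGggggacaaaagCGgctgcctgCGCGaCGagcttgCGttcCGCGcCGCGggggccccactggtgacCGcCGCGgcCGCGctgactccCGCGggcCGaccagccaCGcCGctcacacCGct

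These windows hold 9 CG dinucleotides for Hoxa7, 4 for Hoxa9, 12 for Hoxa10, 5 for Ifitm1 and 32 for Gata2. Over all 32851 RefSeq promoter windows the median was 7, and over the 41 windows of the 30 members with an entry it was 14. The windows of Msi2 overlap each other, as do those of Kit, so the same bases count more than once in the member values. At least as many CG dinucleotides as in Gata2 were held by 9.52% of all windows, and at least as many as in Hoxa9 by 68.6%. Searched on both strands, the GATA motif GATAA was in 29.3% of member windows and 25.4% of all windows, and the E box CAGCTG bound by TAL1 complexes in 17.1% and 16.3%. None of these motifs contains another. The RUNX motif TGTGGT was in 7.32% of member windows and 16.8% of all, the ETS motif CCGGAAG in 4.88% and 8.86%, and the HOX and MEIS motif TGATTTAT in 0.0% and 0.977%. Hoxa10 and Gata2 each have a further RefSeq window that is not shown. That of Hoxa10 held 21 CG dinucleotides and a GATAA, and that of Gata2 held 29 CG dinucleotides and a CAGCTG. Of the 5 windows printed, Hoxa9 held a GATAA and the other four held none of these motifs.

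Levels of the members covered a wide range. Per kilobase of exon (mean CPM over 11 libraries divided by merged exon length), Ifitm1 was highest at 99.6, followed by Lmo2 at 58.8, Cd48 at 32.1, Etv6 at 27.2 and Gata2 at 25.9. Mecom at 0.146, Fgd5 at 0.122 and Ndn at 0.0488 were lowest. Kit, the receptor that defines the progenitor compartment together with Sca-1, was at 12.9 CPM per kilobase and Cd34, a sialomucin of progenitors, at 17.0, so both progenitor genes were present in the fraction. At the low end Ndn, a growth suppressor of quiescent stem cells, had 0 to 9 counts in a library. Its value of 0 in WT library 1 allows up to 0.151 CPM, a limit for counting error only.

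**Figure D1:**
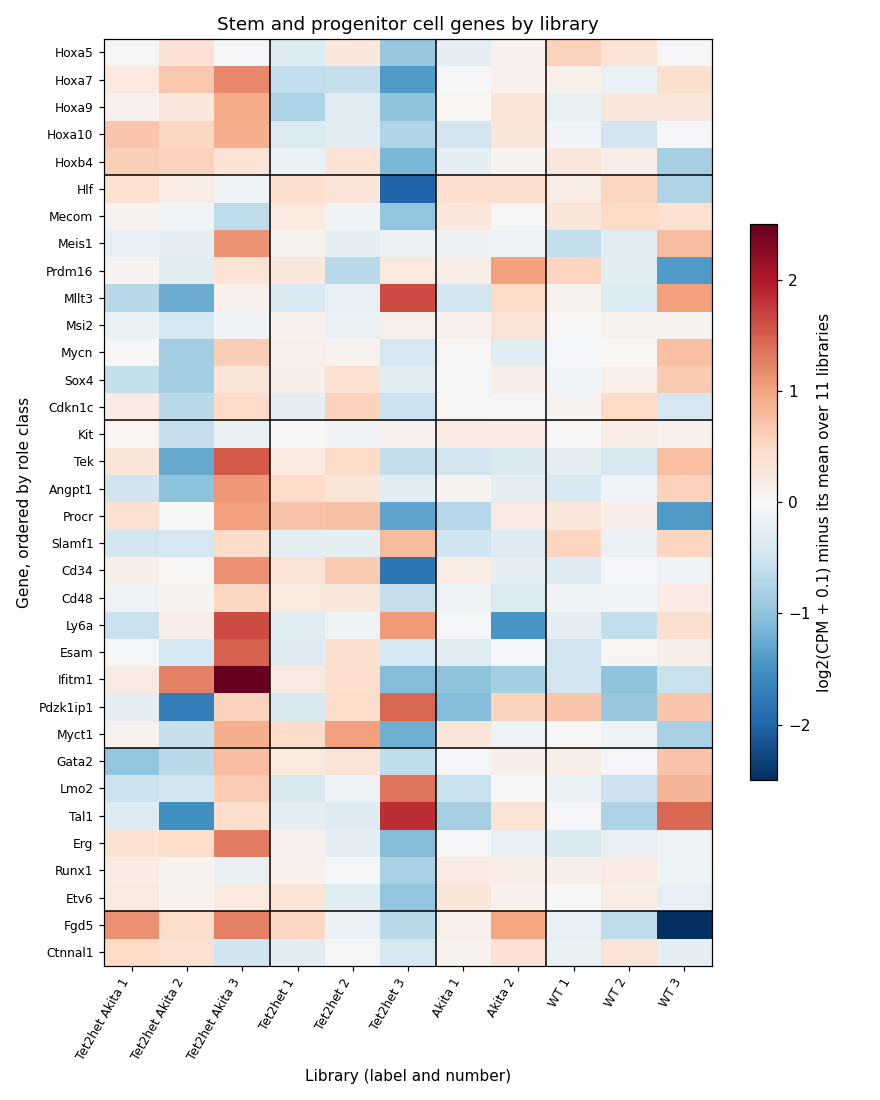
Heat map of the 34 tested members (rows, ordered by role class, with lines between classes) in 11 libraries (columns, by label and number), as log2(CPM + 0.1) minus the gene's mean over the libraries; the colour scale ends at 2.5 and 2 values lie beyond it. Double mutant library 3 is above the mean for most genes and Tet2+/- library 3 below it, while the HOX rows are above the mean in most double mutant libraries.

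No member passed edgeR's test over all libraries in those labelled double mutant against WT, and the members were not tested as a set. Their mean log2 CPM was 3.58, 3.33 and 4.22 in the double mutant, against 3.56, 3.46 and 3.59 in WT, so the groups overlapped and double mutant library 3 lay alone at the top. Over all genes 0.0448% were called by edgeR's quasi-likelihood test at an adjusted p under 0.05, and 0 of 34 members were. DESeq2, at 2.61% of genes, called Ifitm1, and an unadjusted p under 0.05 was reached by 4 members where 8.79% of all genes reached it. The median log2 difference was 0.18 for members, with 20 of 34 above 0, and -0.05 for all genes. 6 members were higher without overlap between the groups, Hoxa10, Hoxb4, Cd34, Ifitm1, Erg and Fgd5, or 17.6% of members beside 9.55% of all genes. Mecom and Msi2 were lower without overlap, 5.88% beside 8.57%. Over the libraries numbered 1 and 2 alone, where 3.44% of genes were called, Ifitm1 rose and Gata2 and Sox4 fell, and the members' median was -0.06.

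In the libraries labelled double mutant, whose Tet2 level was above that of Tet2+/-, Hoxa7, Hoxa9 and Hoxa10 of the HoxA cluster had the smallest p-values among the members against Tet2+/-. Tet2+/- had mean log2 CPM values of 3.58, 3.65 and 3.18 over the members. With 0.262% of genes called over all libraries, no member was called, while 5 had an unadjusted p under 0.05 beside 10.9% of all genes. DESeq2, at 3.45% of genes, called Hoxa7 and Hoxa9. 4 members, Hoxa7, Hoxa9, Hoxa10 and Erg, were higher without overlap, 11.8% beside 8.48% of all genes, and 0 were lower without overlap beside 6.68%. The median log2 difference was 0.23, with 23 of 34 above 0, beside -0.08 for all genes. Without the libraries numbered 3 it was -0.21, with 13 of 34 above 0: there 7.71% of genes were called, Hoxa7 rose, and Gata2, Sox4 and Angpt1 fell. Which way the list lies thus rests on the libraries numbered 3, and the double mutant library 3 alone turned the median to -0.12 when left out.

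Against Akita, the libraries labelled double mutant showed the same leading gene as against WT, and these comparisons share the double mutant libraries. Akita libraries had mean log2 CPM values of 3.42 and 3.62. No member was called over all libraries, where 0.0384% of genes were, and 2, Ifitm1 and Msi2, had an unadjusted p under 0.05 beside 6.6% of all genes. DESeq2, at 1.21% of genes, called Ifitm1. 5 members, Hoxa7, Hoxa10, Hoxb4, Ifitm1 and Erg, were higher without overlap, 14.7% beside 16.6% of all genes, and Hlf, Msi2 and Kit were lower without overlap, 8.82% beside 19.9%, neither share being above that of all genes. The median was 0.20 beside 0.01 for all genes, and -0.06 over numbers 1 and 2. In that smaller set 2.89% of genes were called, with Ifitm1 higher and Gata2 and Sox4 lower.

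Neither single label called a member. For Tet2+/- against WT, 0.0256% of all genes were called and 0 of 34 members; 2 members, Hoxa7 and Hoxa9, had an unadjusted p under 0.05 beside 2.12% of all genes, and DESeq2 called 0.288% of genes and 0 members. None of the 34 tested members was higher in Tet2+/- without overlap, beside 2.07% of all genes; the untested Ndn was, at 0.190, 0.356 and 0.338 CPM in Tet2+/- and 0, 0.0996 and 0.121 CPM in WT. Hoxa7, Hoxa9 and Mecom were lower in Tet2+/- without overlap, 8.82% of members beside 2.18% of all genes, and the median of -0.09 over all libraries was 0.04 over numbers 1 and 2. For Akita against WT, 0.0% of all genes were called, by edgeR and by DESeq2, and 0 members, with 0 members at an unadjusted p under 0.05 beside 0.429% of all genes. Here Msi2, Kit and Fgd5 were higher without overlap, 8.82% beside 4.78%, and Mecom, Slamf1 and Cd48 lower, 8.82% beside 6.86%. The interaction, which asks whether the Tet2 label goes with another difference beside Akita than beside WT, called 0.0% of genes by edgeR and 0 members, with 3 members, Hoxa7, Ifitm1 and Hoxa9, at an unadjusted p under 0.05 beside 3.44% of genes; DESeq2 called 0.435% of genes and 0 members.

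Among the HOX genes, Hoxa7 and Hoxa9 were lowest in Tet2+/- and Hoxa10 was highest in the double mutant. Hoxa7 (ENSMUSG00000038236.8; GRCm38 chromosome 6, 52214491 to 52221854, minus strand) stood at 6.02, 8.11 and 11.8 CPM in the double mutant, 3.27, 3.38 and 1.84 in Tet2+/-, 5.08 and 5.43 in Akita and 5.54, 4.53 and 6.71 in WT. All Tet2+/- libraries were thus below all others, and the double mutant overlapped only WT. In the double mutant against Tet2+/- the log2 difference was 1.61 (SE 0.36, edgeR adjusted p = 0.116 over all 15630 genes), and DESeq2 gave 1.63 (adjusted p = 0.000670). With the replicate number as a block, where 4.5% of genes were called, edgeR called Hoxa7 higher (1.57, adjusted p = 0.0426), and it did so over numbers 1 and 2 too (1.08, adjusted p = 0.0362). Within the library numbers 1, 2 and 3 the log2 difference was 0.86, 1.24 and 2.62. Tet2+/- against WT gave -0.98 (SE 0.35, adjusted p = 0.9999), double mutant against WT 0.63 (SE 0.35, adjusted p = 0.708) and the interaction 1.70 (SE 0.53, adjusted p = 1.0). These were -0.60, 0.49 and 1.02 over numbers 1 and 2, none called.

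Hoxa9 (ENSMUSG00000038227.15; chromosome 6, 52223100 to 52231089, minus strand), whose overexpression with Meis1 gives myeloid leukemia in mice, stood at 7.37, 8.26 and 13.2 CPM in the double mutant. Tet2+/- libraries had 3.93, 5.52 and 3.38 CPM, Akita libraries 7.07 and 8.74 and WT libraries 6.04, 8.37 and 8.35. Again every Tet2+/- library was below every other one, while the other three groups overlapped. Double mutant against Tet2+/- gave a log2 difference of 1.17 (SE 0.32, edgeR adjusted p = 0.210; DESeq2 adjusted p = 0.0145), and 0.73 (adjusted p = 0.132) over numbers 1 and 2. Hoxa10 (ENSMUSG00000000938.11; chromosome 6, 52231197 to 52240854, minus strand) was lower in level, at 1.35, 1.19 and 1.59 CPM in the double mutant, 0.616, 0.653 and 0.435 in Tet2+/-, 0.544 and 1.01 in Akita and 0.756, 0.548 and 0.786 in WT. The double mutant was above all 8 other libraries, from 24 to 27 counts a library against 9 to 21. Its log2 difference was 1.27 against Tet2+/- (SE 0.38, adjusted p = 0.239), 0.98 against WT (SE 0.37, adjusted p = 0.439) and 0.81 against Akita (SE 0.42, adjusted p = 0.821), or 0.9996, 0.96 and 0.69 over numbers 1 and 2, none called.

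Hoxb4 and Hoxa5 were less clear. Hoxb4, described after its values were seen, which expands mouse stem cells when overexpressed, was at 6.22, 6.07 and 5.13 CPM in the double mutant, 3.60, 5.16 and 1.79 in Tet2+/-, 3.45 and 4.23 in Akita and 4.99, 4.53 and 2.24 in WT. The double mutant lay above WT and Akita without overlap and overlapped Tet2+/- by 1 library. Hoxa5 was at 2.11, 2.79 and 2.09 CPM in the double mutant, 1.66, 2.61 and 1.06 in Tet2+/-, 1.81 and 2.31 in Akita and 3.22, 2.74 and 2.06 in WT, so all groups overlapped. The mean log2 CPM of the 5 HOX genes was 2.14 ± 0.17 in the double mutant, 1.12 ± 0.48 in Tet2+/-, 1.65 ± 0.25 in Akita (SD, n = 2) and 1.69 ± 0.10 in WT (SD, n = 3 in the other groups). All 5 were above 0 in the double mutant against Tet2+/- (median 1.17; 0.73 over numbers 1 and 2), and all 5 were below 0 in Tet2+/- against WT (median -0.59; -0.49 over numbers 1 and 2). Hoxa7, Hoxa9 and Hoxa10 are neighbours in 1 cluster and are not independent of each other. Exons of Hoxa7 overlap the antisense gene Hoxaas3 and those of Hoxa9 the microRNA gene Mir196b; whether counting used the strand is not stated in the sources used.

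**Figure D2:**
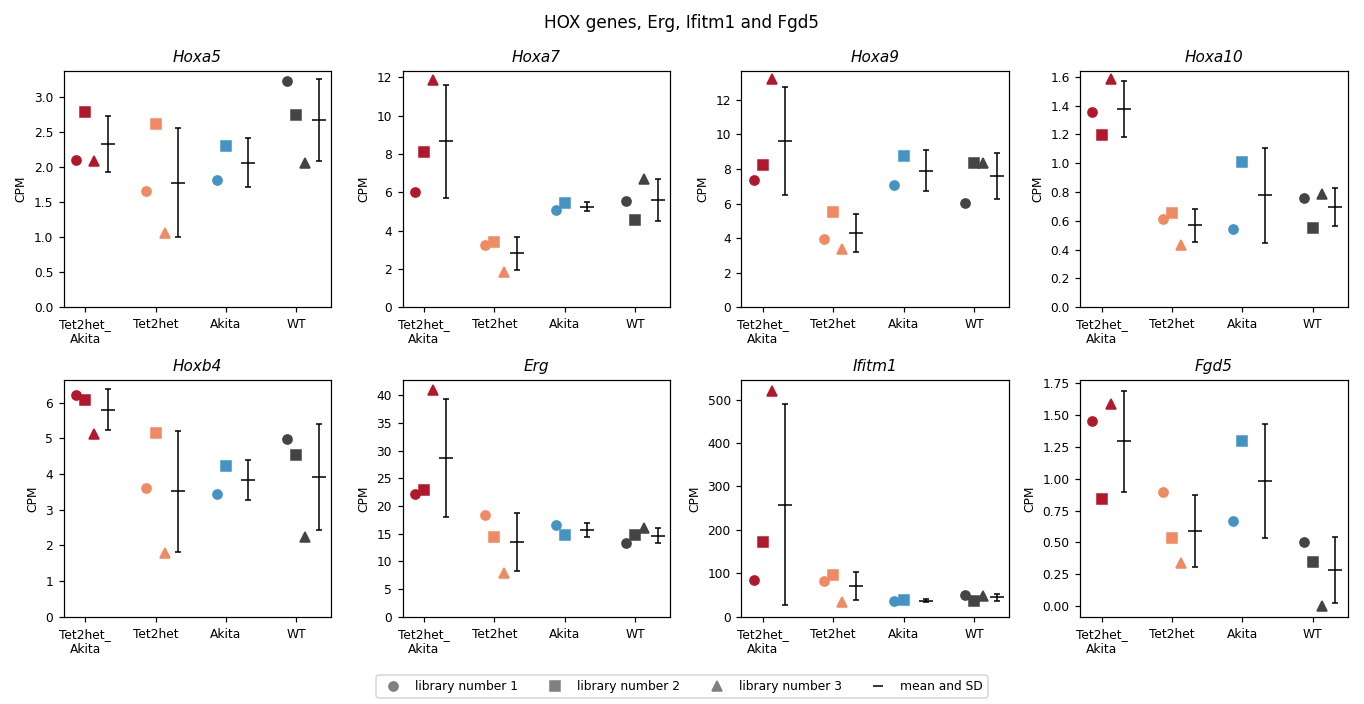
CPM (y axis) of 5 HOX genes, Erg, Ifitm1 and Fgd5 by group (x axis, Tet2het_Akita being the double mutant); each point is a library, its shape gives the library number, and the bar shows the mean with its SD. Hoxa7 and Hoxa9 of Tet2+/- lie below all other libraries, Hoxa10 of the double mutant lies above all others, and Ifitm1 of double mutant library 3 reaches 519 CPM.

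Among the stem cell regulators, Sox4 and Msi2 had the smallest p-values of members below 0 in the double mutant against WT. Sox4 (ENSMUSG00000076431.4; chromosome 13, 28948919 to 28953713, minus strand), a transcription factor of progenitors and early B cells, was at 26.8, 22.6 and 50.4 CPM in the double mutant, 45.3, 53.3 and 33.4 in Tet2+/-, 39.9 and 45.5 in Akita and 39.0, 44.6 and 64.3 in WT. Libraries 1 and 2 of the double mutant were below all 9 others, and library 3 was among the highest. Over all libraries the log2 difference from WT was -0.57 (SE 0.33, adjusted p = 0.737). Over numbers 1 and 2 Sox4 fell by 0.76 against WT (adjusted p = 0.0437), by 0.996 against Tet2+/- (adjusted p = 0.0115) and by 0.79 against Akita (adjusted p = 0.0427) in edgeR's test. A list of 10 B lineage genes, all with counts, was low in all 3 double mutant libraries, including library 3, where Sox4 was among the highest. Its sum was 57.8 to 78.0 CPM in the double mutant, 203 to 401 in Tet2+/-, 194 to 207 in Akita and 164 to 225 in WT. The part of B lineage cells in the Sox4 values was not tested.

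Msi2, an RNA-binding protein that sustains stem cell self-renewal, was at 47.3, 39.5 and 50.1 CPM in the double mutant, 57.6, 47.5 and 58.5 in Tet2+/-, 57.9 and 67.2 in Akita and 54.4, 56.5 and 56.0 in WT. The double mutant was below WT and Akita without overlap, by small amounts: log2 differences were -0.29 against WT (SE 0.17, adjusted p = 0.749) and -0.45 against Akita (SE 0.19, adjusted p = 0.720), and -0.35 and -0.53 over numbers 1 and 2, neither called. Mllt3, a chromatin reader that keeps human stem cells in culture, was at 17.7, 12.1 and 31.1 CPM in the double mutant, 22.1, 24.9 and 89.9 in Tet2+/-, 20.8 and 39.8 in Akita and 30.7, 22.8 and 58.9 in WT. Within each library number the double mutant was below WT, by 0.79, 0.91 and 0.92 on the log2 scale. It did not pass the test over all libraries (-0.88, SE 0.61, adjusted p = 0.797), with the replicate block (-0.87, SE 0.30, adjusted p = 0.169) or over numbers 1 and 2 (-0.84, adjusted p = 0.193).

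Mecom, the EVI1 locus required for long-term stem cells, had 1.85, 1.64 and 1.08 CPM in the double mutant, 2.09, 1.60 and 0.821 in Tet2+/-, 2.12 and 1.78 in Akita and 2.17, 2.49 and 2.30 in WT. All 8 libraries with a mutant label were below the 3 WT libraries, at 17 to 50 counts a library, and the log2 differences from WT were -0.60 (double mutant, adjusted p = 0.771), -0.62 (Tet2+/-, adjusted p = 0.9999) and -0.25 (Akita, adjusted p = 1.0). These 3 values share the WT libraries, and over numbers 1 and 2 they were -0.41, -0.33 and -0.26, none called. Prdm16, a related regulator, was at 1.35, 1.04 and 1.65 CPM in the double mutant, 1.56, 0.771 and 1.55 in Tet2+/-, 1.45 and 2.74 in Akita and 1.91, 1.05 and 0.424 in WT, with overlap throughout. Mycn, a MYC family factor, was at 3.76, 2.04 and 5.83 CPM in the double mutant, 4.17, 4.04 and 2.80 in Tet2+/-, 3.87 and 3.07 in Akita and 3.73, 3.78 and 6.41 in WT.

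Hlf and Meis1 were chosen for their values in the libraries numbered 3. Hlf, a transcription factor that marks stem cells, stood at 14.2 to 16.8 CPM in 7 of the 8 libraries numbered 1 and 2 and at 18.2 in WT library 2. In the libraries numbered 3 it was at 11.4 CPM in the double mutant, 3.04 in Tet2+/- and 7.32 in WT. Meis1, the HOX cofactor, was at 33.5 CPM in double mutant library 3 and 26.4 in WT library 3, but at 13.9 in Tet2+/- library 3, where the others lay between 10.1 and 16.3. Its interaction was 0.70 over all libraries and -0.46 over numbers 1 and 2, neither past the test. Cdkn1c, a cyclin-dependent kinase inhibitor of quiescent stem cells, ranged from 0.746 to 1.90 CPM with overlap of all groups.

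Of the receptors and surface proteins, Ifitm1 had the largest log2 difference between the double mutant and WT. Ifitm1 (ENSMUSG00000025491.14; chromosome 7, 140967221 to 140969825, plus strand), an interferon-induced membrane protein, was at 83.7, 172 and 519 CPM in the double mutant, 83.1, 95.5 and 33.7 in Tet2+/-, 35.4 and 39.6 in Akita and 51.1, 35.7 and 48.8 in WT. The double mutant was above WT and Akita without overlap, and its lowest library was within the Tet2+/- range. Its log2 difference from WT was 2.52 (SE 0.62, edgeR adjusted p = 0.201; DESeq2 adjusted p = 0.00340) and from Akita 2.78 (SE 0.74, edgeR adjusted p = 0.389; DESeq2 adjusted p = 0.00588). Over numbers 1 and 2 Ifitm1 rose by 1.56 against WT (adjusted p = 0.0467) and by 1.77 against Akita (adjusted p = 0.0379), but the difference from Tet2+/- was 0.52 (adjusted p = 0.348). Within numbers 1, 2 and 3 the double mutant exceeded WT by 0.71, 2.27 and 3.41 on the log2 scale. Library 3 thus raises the fold over 1.5 times. Close relatives of Ifitm1 and of Ly6a could share reads with them, which leaves these counts uncertain.

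Kit (ENSMUSG00000005672.12; chromosome 5, 75574916 to 75656722, plus strand), the stem cell factor receptor, was among the steadiest members. It stood at 117, 76.1 and 99.3 CPM in the double mutant, 115, 106 and 122 in Tet2+/-, 131 and 132 in Akita and 112, 129 and 122 in WT, and its log2 difference from WT was -0.31 (SE 0.19, adjusted p = 0.758), and -0.32 over numbers 1 and 2. Cd34 ranged more: it was at 123.3, 114 and 247 CPM in the double mutant, 143, 176 and 31.9 in Tet2+/-, 128 and 95.3 in Akita and 89.1, 110 and 105 in WT. Its highest and its lowest value were both in libraries numbered 3. The log2 difference between double mutant and Tet2+/- was 0.47 over all libraries and -0.43 over numbers 1 and 2, neither called (adjusted p = 0.747 and 0.189). Slamf1, the CD150 antigen, was at 2.31, 2.39 and 4.44 CPM in the double mutant, 2.75, 2.73 and 5.65 in Tet2+/-, 2.24 and 2.55 in Akita and 4.68, 2.84 and 4.72 in WT. Akita lay below WT without overlap, with a log2 difference of -0.77 that did not pass the test (adjusted p = 1.0), and of -0.65 over numbers 1 and 2.

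Cd48, described after its values were seen, which is absent from the most primitive mouse stem cells, was at 34.1, 39.1 and 53.9 CPM in the double mutant, 44.4, 45.1 and 25.03 in Tet2+/-, 34.3 and 29.5 in Akita and 35.3, 35.8 and 42.9 in WT. Myct1, a gene of stem and endothelial cells, was at 8.52, 5.32 and 15.02 CPM in the double mutant and 11.04, 16.4 and 3.38 in Tet2+/-. Akita libraries had 9.92 and 7.25 CPM of Myct1 and WT libraries 8.06, 7.52 and 4.54. In both genes the double mutant and Tet2+/- libraries numbered 3 lay at opposite ends of their groups.

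Tek, Angpt1, Procr, the adhesion molecule gene Esam, Ly6a and Myct1 were high in the same library, a pattern chosen after its values were seen. In double mutant library 3 they stood at 5.83, 68.4, 4.06, 6.47, 25.4 and 15.02 CPM, against 2.41, 22.9, 2.56, 2.21, 5.51 and 8.52 in double mutant library 1. Tek is the receptor of angiopoietin 1, the product of Angpt1, and both were higher there than in any other library. Tet2+/- library 3 had 1.26, 26.4, 0.725, 1.64, 17.3 and 3.38 CPM in the same order, so that Procr and Myct1 were near their lowest where Ly6a was near its highest. Angpt1 fell in the double mutant against Tet2+/- over numbers 1 and 2 (log2 difference -1.14, adjusted p = 0.0210), at 22.9 and 15.7 CPM against 45.0 and 39.6. In the libraries numbered 3 it differed the other way, by 1.37 on the log2 scale. An endothelial list, all 5 of 5 genes with counts, summed to 44.1 to 93.4 CPM in the double mutant, 33.3 to 75.4 in Tet2+/-, 64.4 to 68.8 in Akita and 66.3 to 73.7 in WT, with the top value in double mutant library 3. A stroma list, 5 of 5 with counts, summed to 12.3 to 59.2, 6.65 to 42.1, 7.44 to 8.07 and 6.47 to 28.3 CPM in these groups, again with the top value in double mutant library 3. The part of either cell type was not tested.

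Gata2 and its partners were high in different libraries. Gata2 (ENSMUSG00000015053.14; chromosome 6, 88193891 to 88207032, plus strand), needed for stem cell survival and also active in mast cells and basophils, was named after its values were seen. It stood at 67.4, 82.6 and 225 CPM in the double mutant, 157, 164 and 84.2 in Tet2+/-, 127 and 147 in Akita and 145, 127 and 215 in WT. Libraries 1 and 2 of the double mutant were below all others, and library 3 was the highest of all. Over all libraries the log2 difference from Tet2+/- was -0.11 (SE 0.45, adjusted p = 0.937). Over numbers 1 and 2 Gata2 fell by 1.09 against Tet2+/- (adjusted p = 0.00753), by 0.86 against WT (adjusted p = 0.0270) and by 0.87 against Akita (adjusted p = 0.0274). In number 3 the double mutant was above Tet2+/- by 1.41 on the log2 scale.

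A basophil and mast cell list followed the same libraries as Gata2. All 5 of 5 genes (Cpa3, Mcpt8, Prss34, Fcer1a and Ms4a2) had counts in every library, and their sum was 502, 806 and 5365 CPM in the double mutant, 1624, 1644 and 724 in Tet2+/-, 1651 and 1778 in Akita and 2212, 1569 and 2817 in WT. Both the list and Gata2 were lowest in double mutant libraries 1 and 2 or Tet2+/- library 3 and highest in double mutant library 3. The part of these cells in the values of Gata2 was not tested. A megakaryocyte list of 6 genes, all with counts, summed to 121 to 487 CPM in the double mutant, 136 to 197 in Tet2+/-, 170 to 171 in Akita and 190 to 299 in WT, with its top value in the same double mutant library.

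**Figure D3:**
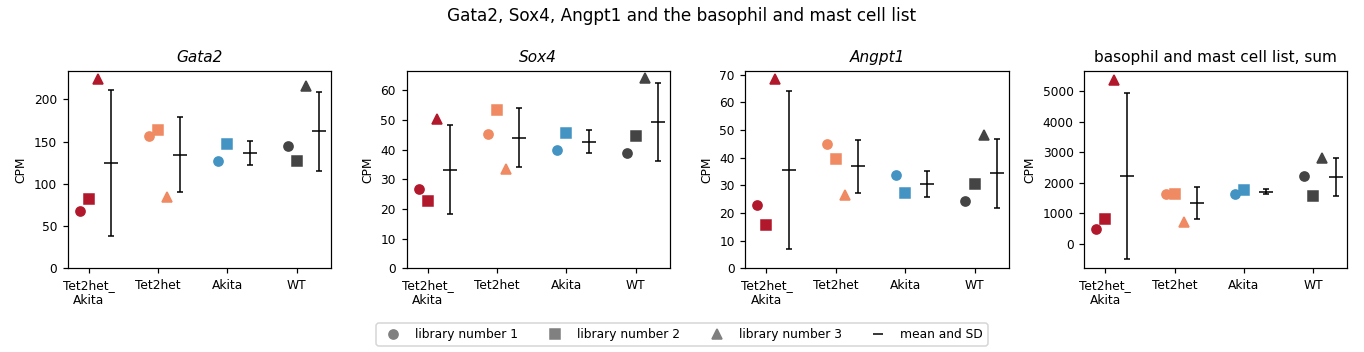
CPM (y axis) of Gata2, Sox4, Angpt1 and the summed basophil and mast cell list by group (x axis, Tet2het_Akita being the double mutant); points are libraries, shaped by library number, and bars give the mean and SD. Double mutant libraries 1 and 2 are the lowest pair in the 3 gene panels, while library 3 is near or at the top.

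Tal1 and Lmo2, which form a complex with GATA factors in stem and red cell precursors, were highest in libraries numbered 3. Tal1 was at 64.9, 28.4 and 112 CPM in the double mutant, 70.4, 65.6 and 299 in Tet2+/-, 46.6 and 104 in Akita and 80.4, 48.5 and 223 in WT. Lmo2 was at 78.8, 82.1 and 178 CPM in the double mutant, 86.5, 105 and 291 in Tet2+/-, 77.9 and 114 in Akita and 102, 80.0 and 207 in WT. In both genes the order of the libraries numbered 3 was Tet2+/-, then WT, then the double mutant. The same order held for Mllt3 and for an erythroid list of 9 genes, all with counts, whose sum was 1502, 444 and 2467 CPM in the double mutant, 1457, 2132 and 8003 in Tet2+/-, 952 and 2774 in Akita and 2439, 1012 and 4546 in WT. Pdzk1ip1, a membrane protein used as a stem cell reporter, had 8.92, 3.13 and 15.7 CPM in the double mutant, 7.96, 14.3 and 28.7 in Tet2+/-, 4.90 and 15.7 in Akita and 17.1, 5.43 and 17.1 in WT. Lmo2 and Pdzk1ip1 were described after their values were seen, and the part of erythroid cells in these genes was not tested. Tal1 gave a log2 difference of -1.08 between double mutant and Tet2+/- (SE 0.77, adjusted p = 0.619), and -0.54 over numbers 1 and 2.

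**Figure D4:**
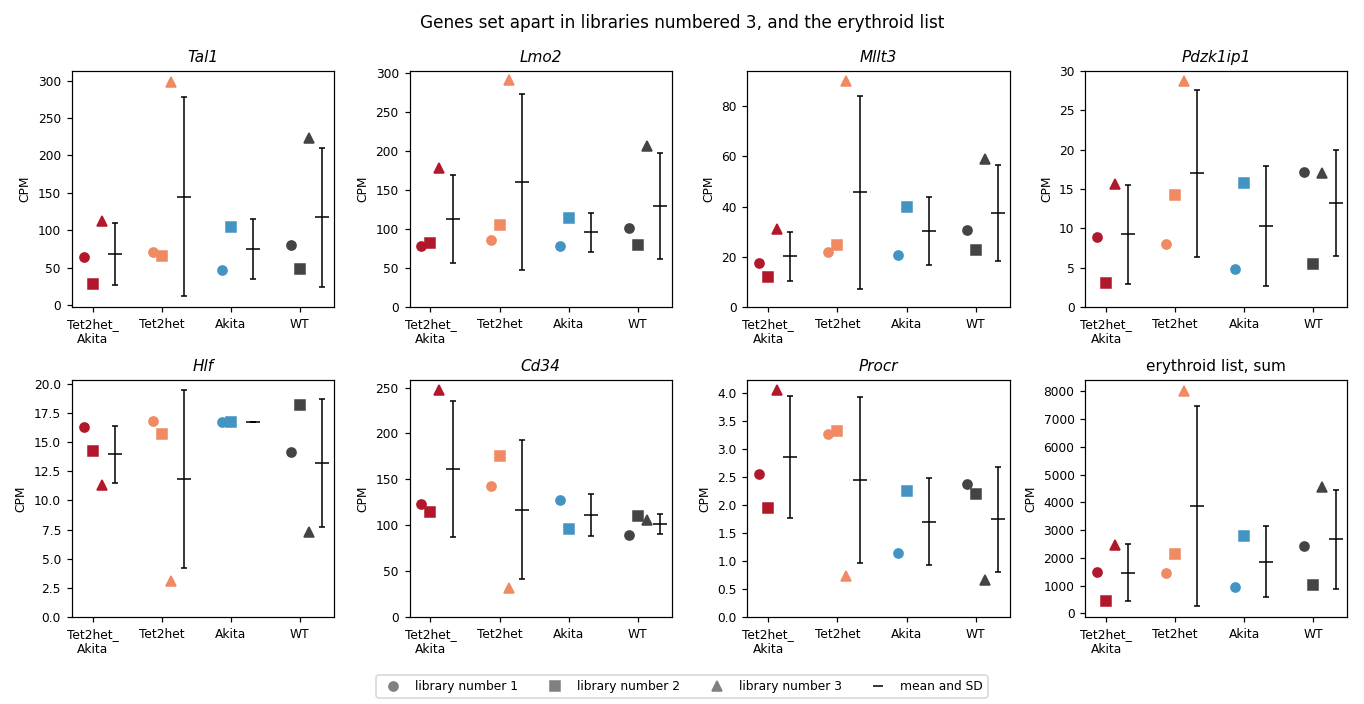
CPM (y axis) of 7 members and the summed erythroid list by group (x axis, Tet2het_Akita being the double mutant); points are libraries, shaped by library number, with mean and SD bars. Triangles, the libraries numbered 3, are high for Tal1, Lmo2 and Mllt3 along with the erythroid list, and low for Hlf; for Cd34 and Procr the double mutant triangle is the highest and that of Tet2+/- or WT the lowest.

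Erg was highest in the double mutant. Erg (ENSMUSG00000040732.18; chromosome 16, 95359169 to 95586593, minus strand), an ETS factor that keeps stem cells from differentiating, was at 22.1, 22.9 and 41.0 CPM in the double mutant, 18.3, 14.4 and 7.92 in Tet2+/-, 16.6 and 14.7 in Akita and 13.2, 14.7 and 16.0 in WT. The double mutant was above all 8 other libraries. The log2 difference was 0.97 against WT (SE 0.34, adjusted p = 0.406), 1.08 against Tet2+/- (SE 0.34, adjusted p = 0.265) and 0.87 against Akita (SE 0.39, adjusted p = 0.753). Over numbers 1 and 2 it was 0.69, 0.46 and 0.52 in these comparisons (adjusted p = 0.0711, 0.146 and 0.142), so Erg did not pass the test in either set. Etv6, an ETS repressor, was at 188, 169 and 188 CPM in the double mutant, 198, 129 and 80.2 in Tet2+/-, 196 and 170 in Akita and 157, 180 and 138 in WT, with overlap. Runx1 had 104 to 136 CPM in the double mutant, 66.9 to 129 in Tet2+/-, 133 to 136 in Akita and 109 to 136 in WT.

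The reporters of stem cells Fgd5 and Ctnnal1, genes into which marker alleles have been placed in mice, closed the list. Fgd5 had 1.45, 0.845 and 1.59 CPM in the double mutant, 0.901, 0.534 and 0.338 in Tet2+/-, 0.665 and 1.30 in Akita and 0.504, 0.349 and 0 in WT. The WT value of 0 allows up to 0.181 CPM, and counts reached only 29 in any library. The double mutant exceeded WT without overlap, with a log2 difference of 2.12 (SE 0.79, adjusted p = 0.426). Without the libraries numbered 3 it was 1.42 (adjusted p = 0.183). Within number 3 the log2 difference of 4.0 depends on the prior count added to that 0. Ctnnal1, alpha-catulin, was at 10.9, 9.995 and 5.39 CPM in the double mutant, 6.26, 7.36 and 5.75 in Tet2+/-, 8.16 and 9.85 in Akita and 6.65, 9.51 and 6.41 in WT.

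**Figure D5:**
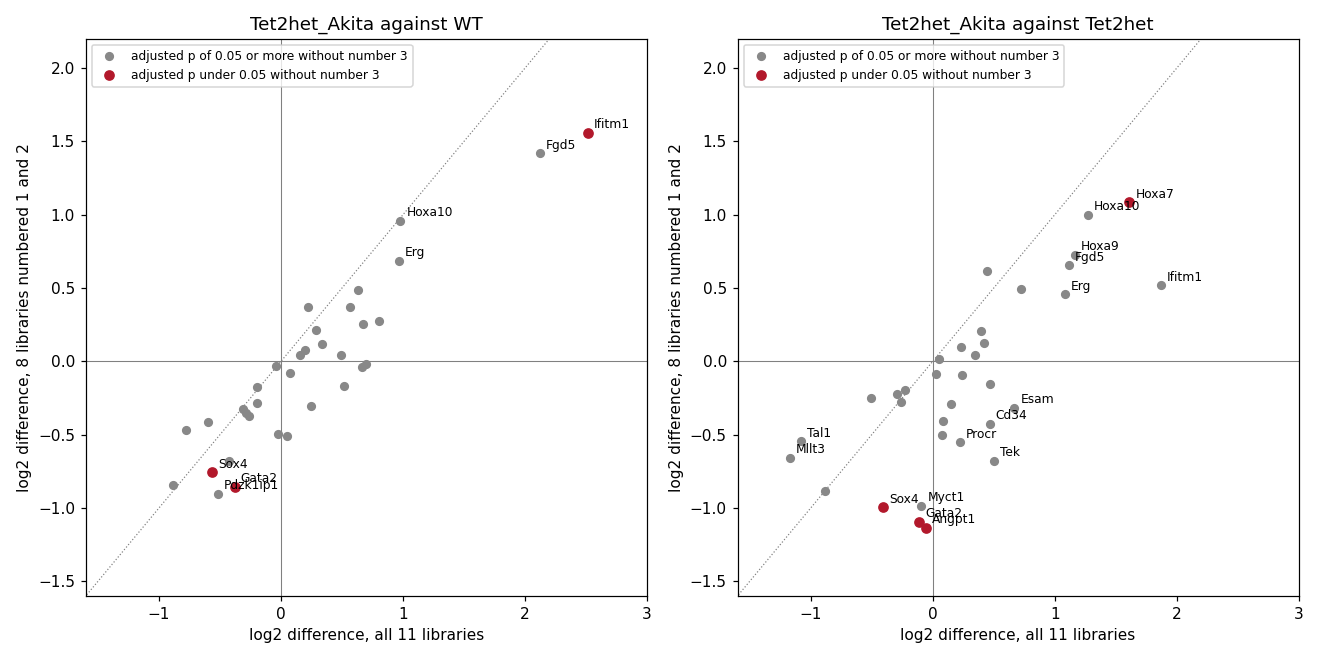
Log2 difference of each tested member over all 11 libraries (x axis) and over the 8 libraries numbered 1 and 2 (y axis), for the double mutant against WT (left) and against Tet2+/- (right); red points had an adjusted p under 0.05 in the 8 libraries, and the dotted line marks equal values. Ifitm1 and Hoxa7 lie above 0 on both axes, while Gata2, Sox4 and Angpt1 are near 0 or moderately below it on the x axis and lower on the y axis.

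The members moved in the libraries numbered 3, in different directions by group. Number 3 minus the mean of numbers 1 and 2 had a median log2 difference over the members of 0.85 in the double mutant (28 of 34 above 0), -0.70 in Tet2+/- (9 of 34) and 0.22 in WT (22 of 34). Over all genes that median was 0.01 in the double mutant and 0.02 in Tet2+/- and WT.  Of the members' log2 differences, 8 kept 1 sign within every library number as higher and 7 as lower in the double mutant against WT, 23.5% and 20.6% beside 22.3% and 25.7% of all genes.

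Other genes of the same pathways were read from a list of 54, of which 49 were tested. None was called over all libraries in any of the 6 comparisons. Hoxb5, a HOX gene of long-term stem cells, was at 1.05, 0.796 and 1.08 CPM in the double mutant, 0.142, 0.297 and 0.242 in Tet2+/-, 0.181 and 0.288 in Akita and 0.302, 0.398 and 0.182 in WT, and was above all other libraries there. Its log2 difference was 2.09 against Tet2+/- (SE 0.46, adjusted p = 0.113) 1.69 against WT (SE 0.45, adjusted p = 0.230) and 2.01 against Akita (SE 0.53, adjusted p = 0.385). These were 2.08, 1.38 and 1.92 over numbers 1 and 2, none called, and with the replicate block Hoxb5 was called higher against Tet2+/- (2.11, adjusted p = 0.0425). Nfe2, a factor of megakaryocytes and red cells, was at 276, 306 and 204 CPM in the double mutant, 144, 148 and 107 in Tet2+/-, 189 and 153 in Akita and 168, 171 and 111 in WT. Its log2 difference was 0.98 against Tet2+/- (adjusted p = 0.173), and with the replicate block it was called higher against Tet2+/- (0.97, adjusted p = 0.0136) and WT (0.81, adjusted p = 0.0325).

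More companion genes were called outside the fit over all libraries. With the block 4 of 49 companion genes were called in the double mutant against Tet2+/-, where 4.5% of all genes were, and 2 of 49 against WT, where 1.63% were; Egr1 was another of those called against Tet2+/- (0.98, adjusted p = 0.0288). Over numbers 1 and 2, where 7.71% of all genes were called, 6 of 48 rose and 2 fell against Tet2+/-, with Nfe2, Spi1, Lyl1, Selp and Egr1 among those higher and Flt3 and Cd27 lower, and 2 of 48 rose against WT, where 3.44% of all genes were called, among them Nfe2 (0.78, adjusted p = 0.0287). Median log2 differences of the companion list were 0.39 against Tet2+/- and 0.12 against WT over all libraries, and 0.02 and -0.09 over numbers 1 and 2. Lyl1 had a log2 difference of 0.46 against Akita (adjusted p = 0.714), Hoxa4 of -1.34 and Vwf of -1.10 in Tet2+/- against WT (adjusted p = 0.9999 for both). In Akita against WT, Gfi1b had -1.67 and Cxcl12 -2.10, and in the interaction Hoxb5 had 2.40 and Lyl1 0.64 (adjusted p = 1.0 for each). WT library 3, with no Akita library of that number, held 160.6 CPM of Gfi1b and 21.35 of Cxcl12. WT libraries 1 and 2 had 29.57 and 14.69 CPM of Gfi1b, beside 13.85 and 29.1 in Akita. For Cxcl12 they had 3.828 and 1.295 CPM, beside 1.874 and 2.209 in Akita. Apart from WT library 3, Akita and WT thus overlapped in both genes.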

How the data were processed

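The authors deposited whole-number, unnormalised counts for each gene in 1 table. TopHat2 2.1.1, Trimmomatic 0.32, bcl2fastq and the build GRCm38 are named in the submitters' processing notes. How reads were counted, and whether by strand, is not given in the sources used. Of 12 labelled samples, 11 had a column; 1 further column, headed A3, matched no label and was not used, although its name resembles those of the Akita samples A1 and A2. The labelled sample with no column of its name was the double mutant AT4, which was not analysed here. Gene names and exon lengths came from GENCODE M21 and promoter windows from RefSeq.

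The main test was edgeR 4.0.16 (R 4.3.3) with filterByExpr, TMM factors, 1 fit of all 4 groups, robust quasi-likelihood F tests, and Benjamini-Hochberg adjustment over 15630 genes, called under 0.05. Standard errors are the size of the log2 difference over the square root of F. Alternatives were RLE factors, DESeq2 1.42.0, a filter at a mean of 5 CPM or none at all, a block for the library number, omission of all libraries numbered 3, and omission of each library in turn. The fit was also run on simulated counts that had no shift of the libraries numbered 3. Its pass condition covered the size of estimated log2 differences, and not how often calls were false or missed. The members and lists were chosen with earlier results of these data known. Values in every library are given for the 3 members with the smallest p in each direction of a comparison and the most abundant member of each role class; others are said to be chosen after their values were seen. Of the companion list, those called, or else the 2 with the smallest p, are named, except for a result that is not reported here.

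Deviations of same-numbered libraries from their group means correlated at 0.318 to 0.791 between the double mutant, Tet2+/- and WT, so library numbers taken from the labels were treated as pairing these groups. Since number 3 stands apart in each, this does not show that numbers 1 and 2 pair. Between these groups, libraries 1 and 2 correlated at 0.318 to 0.541 with the same number and at 0.211 to 0.691 with the other. Numbers 1 and 2 thus did not pair more closely than swapped ones, and differences within them are between libraries not shown to pair. Akita libraries, at -0.351 and 0.0661 with WT, did not pair either. The block was nevertheless fitted over all 11 libraries, Akita included.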

Additional observations from a re-analysis of the deposited data

How the results depend on the processing

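No member was called in any of 6 comparisons over all libraries, nor when 1 library was left out. Members called in the double mutant against WT numbered 1 by DESeq2 and 3 without the libraries numbered 3; against Tet2+/- they numbered 2 and 4, and 1 with the replicate block; against Akita 1 and 3. The replicate block changed no other member's call. The members' median log2 difference against Tet2+/- was 0.23, -0.21 without the libraries numbered 3, and between -0.12 and 0.39 with 1 library left out, the lowest without double mutant library 3; the interaction's was 0.23 and -0.24. The interaction of Meis1 turned from 0.70 to -0.46 without the libraries numbered 3. A sign change counted only where a value was called or both exceeded 1 standard error, so that smaller ones, as for Cd34 against Tet2+/- (0.47, and -0.43 without the libraries numbered 3), are not among them. The cause was not tested.

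Counts over all genes in the double mutant against WT were 7, and 408 by DESeq2, 52 with no filter, 255 with the block, 519 without the libraries numbered 3 and 1 to 49 with 1 library left out. Against Tet2+/- they were 41, and 538, 86, 703, 1163 and 0 to 66, with 8 at a mean of at least 5 CPM. Against Akita they were 6, and 189, 20, 18, 436 and 0 to 11, with 3 at that mean. Tet2+/- against WT gave 4, and 45 by DESeq2, 8 with the block, 22 without the libraries numbered 3 and 1 to 7 with 1 left out; the interaction gave 0, and 60, 3 and 7, with 3 under no filter. By that rule, single members kept their direction and side of the threshold in 1136 other tests and in all 2244 with 1 library left out; 15 gained a call and 1 reversed. Counts of at most 29 a library for Fgd5, 27 for Hoxa10 and 9 for Ndn limit their precision. The same holds for the companion genes Hoxb5, with at most 21 counts, and Hoxa4, with at most 15.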
